A study of Mus musculus with 8 samples.

Results

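The interleukin-12 and interferon gamma axis was followed through 10 genes in single cells of the newborn mouse lung: the cytokine subunits Il12a and Il12b, the receptor chains Il12rb1 and Il12rb2, the transcription factor Stat4, the cytokine Ifng, its receptor chains Ifngr1 and Ifngr2, and the chemokines Cxcl9 and Cxcl10. The genes were chosen by name, with earlier results of these data known. All 10 were found among the 32285 genes of the count table. Endothelial, epithelial and immune cells had been sorted by flow cytometry from lungs of wild-type C57BL6/J pups at 5 days of age, kept after birth in 65% oxygen (hyperoxia, 4 libraries) or in 21% oxygen (air, 4 libraries). Every pup, in hyperoxia or air, had been exposed to lipopolysaccharide, an inflammatory bacterial cell wall component, on day 14 of gestation, so no group without that exposure was analysed here. The subject of the study was type 2 immune polarization in bronchopulmonary dysplasia, the lung disease of preterm infants that such exposures are used to model. No column name tied a cell to a library, so hyperoxia and air could not be compared, and every level below describes both together.

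Interleukin-12 is a dimer of the p35 subunit, encoded by Il12a, and the p40 subunit, encoded by Il12b, which also pairs with Il23a to form interleukin-23. Dendritic cells and macrophages release it when they sense microbes, and it signals through the receptor chains Il12rb1 and Il12rb2 and the transcription factor STAT4 to induce interferon gamma in natural killer (NK) cells and T cells. Interferon gamma then acts through the chains Ifngr1 and Ifngr2 on most cells, and induces antigen presentation genes and the chemokines Cxcl9 and Cxcl10, which draw in further lymphocytes.

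Depth was a median of 4425 unique molecular identifiers (UMIs, each counting 1 captured transcript molecule) per cell over 11806 cells, in 8 runs of barcodes with 282 to 3355 cells and median depths of 3246 to 11587 UMIs. A run is a stretch of alphabetically ordered barcodes and no known replicate of a group. Cells were placed in the first of 10 gates they passed, each set by UMIs of 1 or a few defining genes: 54 migratory dendritic (Ccr7 and Fscn1), 81 dendritic (Flt3), 191 NK (Ncr1 without Cd3e), 296 gamma-delta T (Trdc), 327 alpha-beta T (Trac and Cd3e), 364 interstitial macrophage (C1qa and C1qb), 956 alveolar macrophage (Ear1 and Marco), 1220 monocyte (Ly6c2 and F13a1), 597 endothelium (Cdh5 and Cldn5) and 711 alveolar type 2 (AT2, Sftpc) cells. The macrophage, monocyte and endothelium gates summed the UMIs of their named genes, so a cell could pass on either gene alone. The migratory dendritic and alpha-beta T gates needed both genes. The remaining 7009 cells passed no gate and are called ungated in the text and other in the figures. The marker lists of the NK, gamma-delta T, macrophage, endothelium, AT2 and migratory dendritic gates were each highest in their own gate with every listed marker leading there, while 4 of 6 alpha-beta T and 3 of 5 monocyte markers did. These lists include the genes that set the gates, which are high there through the gating itself. The monocyte gate also held neutrophil markers at 28270 counts-per-million (CPM), against 5587 CPM in ungated cells. In all, 293 cells passed 2 or more gates, with a median of 8973 UMIs. Across the runs 12 barcodes occurred more than once, in 31 cells, and 0 cells had a profile identical to that of another cell.

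Levels are UMIs summed over the cells of a group and scaled to CPM, with 95% intervals for counting error only in parentheses. A gene counted as concentrated in a group where its CPM was at least 4-fold that of all other cells and at least 20 CPM. By that measure 6 of the 10 genes were concentrated in their leading group, the group where each was highest, beside 15.7% of the 17763 genes compared. The median fold of the leading group was 11.65 for the 10 genes and 2.56 for all genes compared. The middle genes of the 10 were Il12rb2 at 11.98-fold and Il12a at 11.31-fold (2.81 to 98.8). The Il12a fold rested on 26 UMIs in the whole table. The 10 genes were chosen with earlier results known, so these comparisons are descriptions only. The 6 genes were Il12b, Il12rb1, Il12rb2, Stat4, Ifng and Cxcl10, and without run 4 they were 5, since Cxcl10 dropped out. NK cells held 4 concentrated members (background 1.86%) and so did gamma-delta T cells (background 1.94%). Alpha-beta T cells held 1 (background 1.66%), as did migratory dendritic cells (background 2.01%) and dendritic cells (background 0.833%). Interstitial macrophages, alveolar macrophages, monocytes, endothelium, AT2 cells and ungated cells held 0, with backgrounds of 0.321%, 0.608%, 0.31%, 5.88%, 4.69% and 0.332%.

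**Figure D1:**
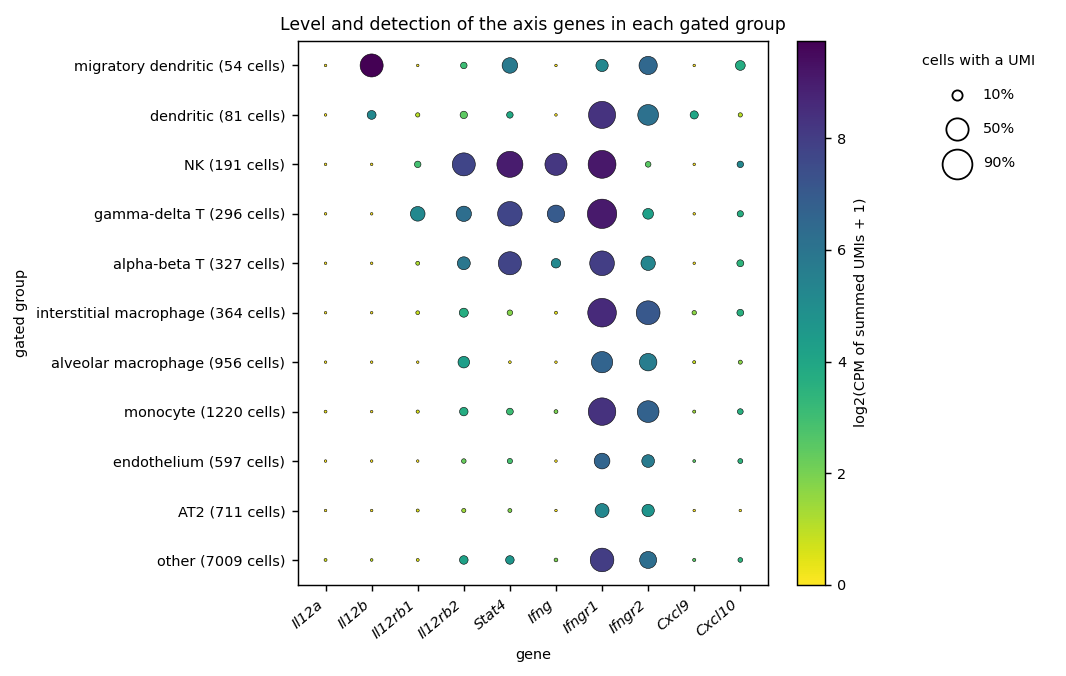
Level (colour, log2 of CPM + 1) and share of cells with at least 1 UMI (dot area) of the 10 genes, in columns, across the 11 groups of cells, in rows. Il12b stands out in migratory dendritic cells, Il12rb2, Stat4 and Ifng in NK and T cells, and both interferon gamma receptor chains are spread over all rows.

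Il12b was found almost entirely in migratory dendritic cells, which held 349 of its 416 UMIs. These are dendritic cells that have matured and express the lymph node homing receptor Ccr7. The gene (chromosome 11, 44400063 to 44414033, plus strand, GRCm38) reached 861 CPM (773 to 956) there, against 0.875 CPM in all other cells, a 984-fold difference (756 to 1298). Of the 54 cells, 29 carried a UMI (53.7%, 39.6 to 67.4), with a median of 6 UMIs in those cells and 78 in the highest one. At a fixed depth of 2000 UMIs per cell the share was 41.2% (27.6 to 55.8).

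Only runs 7 and 5 held 10 or more migratory dendritic cells, and Il12b stood at 1352 CPM in the 27 cells of run 7 and at 647 CPM in the 13 cells of run 5. In run 1 it stood at 427 CPM over 9 cells, and in run 4 at 4132 CPM over 3 cells. The single cells of runs 3 and 6 carried none. Il12b was thus detected in each of the 4 runs that held 3 or more migratory dendritic cells.

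Dendritic cells came second for Il12b, at 35.5 CPM (24.4 to 49.8) from 33 UMIs in 6 of 81 cells. Within that gate the 53 type 1 cells, marked by Xcr1 or Clec9a, held 16.1 CPM (7.73 to 29.6). The 9 type 2 cells, marked by Cd209a or Mgl2, held 0 UMIs, which allows up to 24.5 CPM. The 19 cells with neither marker pair held 123 CPM (77.9 to 185). The dendritic value was set by few cells: its log2 fold over all other cells was 2.82, 2.20 without run 6 and 1.16, under the 4-fold limit, with gates raised by 1 UMI. Without run 7 its level was 17.8 CPM, under the 20 CPM limit. There were 15 cells that passed both dendritic gates and were counted as migratory.

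All remaining gates held 0 Il12b UMIs: NK, gamma-delta T, alpha-beta T, both macrophage gates, monocytes, endothelium and AT2 cells. In the 711 AT2 cells, with a median depth of 4537 UMIs against 5109 in migratory dendritic cells, 0 UMIs allow a share of up to 0.422% of cells with a UMI, which is no limit on cells that express the gene. Ungated cells held 34 UMIs in 6 cells, of which 29 lay in a single cell of run 8, and the log2 fold in migratory dendritic cells was 9.94, and 10.75 without that run. Among ungated cells with a UMI of Ccr7 or of Fscn1 but not both, just outside the migratory gate, Il12b stood at 7.64 CPM in 393 cells. The 3 cells just inside it, with exactly 1 UMI of each, had 0. At the edge of the dendritic gate Il12b stood at 54.6 CPM in the 46 cells with 2 UMIs of Flt3, just inside, and at 43.8 CPM in the 103 ungated cells with 1, just outside.

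Il12a, the p35 subunit that p40 needs to form interleukin-12, was barely detected. The gene (chromosome 3, 68690644 to 68698547, plus strand) gave 26 UMIs in 19 cells of the whole table, or 0.338 CPM (0.221 to 0.495). Of these UMIs, 24 lay in 17 ungated cells and 2 in monocytes, and migratory dendritic cells had 0, which allows up to 7.399 CPM. Ungated B cells, marked by Cd79a, held 7 of them in 6 of 141 cells, at 10.96 CPM (4.41 to 22.6). No cell carried both subunits: 0 of the 41 Il12b-positive cells had an Il12a UMI. The same held for Il23a, the partner of p40 in interleukin-23, with 0 of 41 cells. With so few UMIs of either partner, cells carrying both were not detectable at this depth.

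**Figure D2:**
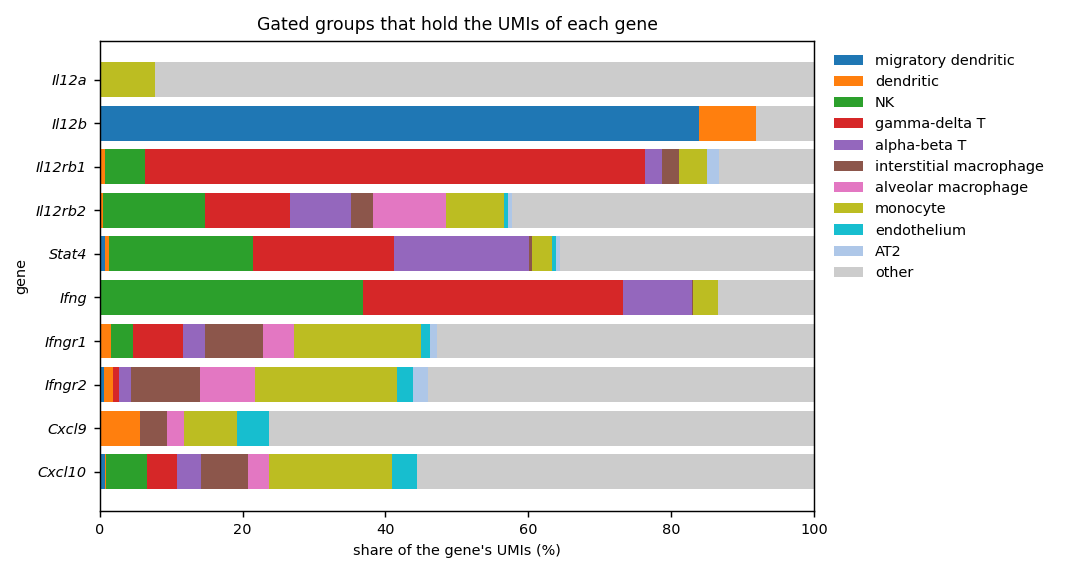
Share of each gene's UMIs (x axis, percent) that lay in each of the 11 groups of cells, 1 bar per gene. Migratory dendritic cells held 83.9% of the UMIs of Il12b, gamma-delta T cells 70.1% of those of Il12rb1, and NK and gamma-delta T cells 36.8% and 36.5% of those of Ifng.

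The receptor chains of interleukin-12 led in different lymphocytes. Il12rb1, which binds p40 and is shared with the interleukin-23 receptor (chromosome 8, 70808449 to 70821424, plus strand), led in gamma-delta T cells at 36.0 CPM (29.0 to 44.4), against 0.510 CPM in all other cells, a 70.7-fold difference (47.9 to 106.3). Of the 296 cells, 63 carried a UMI (21.3%, 16.8 to 26.4), and 5.09% (2.81 to 8.39) did at 2000 UMIs per cell. Over the 7 runs with 10 or more of these cells the level was 0 at the lowest, 19.4 at the median and 51.95 CPM at the highest. Runs 4 and 8 gave 0 UMIs in 27 and 10 cells, while run 1 gave 52 of the 89 UMIs, and without run 1 the log2 fold was 5.51 in place of 6.14. NK cells followed at 6.58 CPM (2.65 to 13.6), and no other gate exceeded 1.28 CPM.

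Il12rb2, the chain that binds STAT4 and sets whether a lymphocyte responds to interleukin-12 (chromosome 6, 67291318 to 67376188, minus strand), led in NK cells at 217 CPM (190.1 to 247), against 18.1 CPM in all other cells, a 12.0-fold difference (10.4 to 13.8). Across 6 runs its NK level was 134 at the lowest, 223 at the median and 290 CPM at the highest. Every one of these runs was above all other cells of the same run. In NK cells 102 of 191 carried a UMI (53.4%, 46.1 to 60.6) at a median depth of 4104 UMIs, against 1.13% of AT2 cells. Next came gamma-delta T cells at 76.95 CPM (66.4 to 88.7) and alpha-beta T cells at 58.7 CPM (49.3 to 69.4), with overlapping intervals. The gamma-delta T level was 4.05-fold that of the remaining cells, at the 4-fold limit, with log2 folds of 1.79 to 2.19 over the alternative settings.

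Outside the lymphocytes, Il12rb2 was also detected in alveolar macrophages, the resident phagocytes of the airspace, at 19.3 CPM (16.4 to 22.4). A UMI was present in 125 of 956 of these cells (13.1%), and in 4.44% at 2000 UMIs per cell, against 0.326% of AT2 cells at that depth. These cells held 0 UMIs of Il12rb1 and 1 UMI of Stat4. Ungated cells (17.2 CPM), monocytes (12.5 CPM) and interstitial macrophages (12.0 CPM) lay in the same range. Of the 485 ungated cells with a UMI of Il12rb2, 142 were nonclassical monocytes, marked by Ace or Treml4. That count was not set against the share of nonclassical monocytes among all ungated cells. Migratory dendritic cells, dendritic cells, endothelium and AT2 cells had 7.399, 4.30, 3.77 and 1.68 CPM. Cells with UMIs of both Il12rb1 and Il12rb2 numbered 16 in the whole table, 5 of them NK and 8 gamma-delta T cells.

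Stat4, which carries the interleukin-12 signal to the nucleus (chromosome 1, 51987148 to 52107189, plus strand), led in NK cells at 514 CPM (472 to 559), against 28.5 CPM in all other cells, an 18.1-fold difference (16.4 to 19.9). The NK level was 306 at the lowest, 459 at the median and 720 CPM at the highest of 6 runs, all above the other cells of the same run. Alpha-beta and gamma-delta T cells had 218 CPM (199 to 238) and 216 CPM (198 to 235), which did not differ beyond counting error. The share of cells with a UMI was 68.6% in NK, 60.8% in gamma-delta T and 53.8% in alpha-beta T cells, against 0.985% in AT2 cells.

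Stat4 was lower in every other gate, at 54.3 CPM (34.0 to 82.2) in migratory dendritic cells, 4 of which also passed the alpha-beta T gate, and at 0.117 CPM in alveolar macrophages. Among alpha-beta T cells the CD8 cells held 250 CPM (225 to 278) and the CD4 cells 144 CPM (106 to 192). Ungated cells contained further Stat4-positive lymphocytes. Type 2 innate lymphoid cells were gated by the summed UMIs of Il1rl1 and Gata3, without Cd3e. In these 87 cells Stat4 stood at 149 CPM (119 to 185), with 1 UMI of Il12rb2 and 0 of Ifng. B cells had 113 CPM of Stat4 (88.2 to 142), with 0 UMIs of Il12rb2 or Ifng in 141 cells.

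Ifng itself was detected in the same lymphocytes. The gene (chromosome 10, 118441046 to 118445892, plus strand) led in NK cells at 296 CPM (264 to 331), against 7.12 CPM in all other cells, a 41.6-fold difference (36.1 to 47.9). Over the 6 runs with 10 or more NK cells it was 192 at the lowest, 238 at the median and 471 CPM at the highest, and in all 6 it was above the other cells of the same run. A UMI was found in 94 of 191 NK cells (49.2%, 41.9 to 56.5), and in 37.3% (30.0 to 45.04) at 2000 UMIs per cell.

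Gamma-delta T cells, an early wave of T cells in the lung, held Ifng at 126 CPM (113 to 141), against 7.30 CPM outside that gate, a 17.3-fold difference (15.0 to 19.9). Their runs spread more widely than those of NK cells, with 52.8 at the lowest, 141 at the median and 419 CPM at the highest of 7 runs. The gate did not ask for Cd3e, which 254 of the 296 cells carried. Alpha-beta T cells held 35.3 CPM (28.1 to 43.8), against 10.4 CPM outside that gate, a 3.41-fold difference (2.69 to 4.28), with 42.8 CPM (32.7 to 55.1) in CD8 cells and 9.21 CPM (1.90 to 26.9) in CD4 cells. The NK, gamma-delta T and alpha-beta T intervals did not overlap. The gates did, since 58 cells passed both T cell gates and were counted as gamma-delta T by gate order. Those 58 cells held 93 Ifng UMIs, at 125 CPM (101 to 153). In alpha-beta T cells the runs gave 4.99 at the lowest, 18.5 at the median and 103 CPM at the highest, and 1 cell held 21 of the 83 UMIs. Without run 3, which held 41 of them, the level was 21.5 CPM. For cells passing at most 1 gate the log2 fold in alpha-beta T cells was 1.17 in place of 1.77.

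Ungated cells and monocytes had 2.90 and 2.87 CPM of Ifng. Run 4 held 23 of the 30 monocyte UMIs, and without it the monocyte level was 0.697 CPM. Of the 56 ungated cells with a UMI, 39 also carried the cytotoxic granule gene Nkg7. Interstitial macrophages had a single UMI. Migratory dendritic cells, dendritic cells, alveolar macrophages, endothelium and AT2 cells had 0 UMIs, which in AT2 allows up to 0.422% of cells with a UMI. Of the 280 Ifng-positive cells in the table, 130 (46.4%, 40.5 to 52.5) carried Il12rb2 and 194 (69.3%, 63.5 to 74.6) carried Stat4. Among NK cells alone, 56.4% of Ifng-positive cells (median depth 5021 UMIs) and 50.5% of Ifng-negative cells (median depth 3401 UMIs) carried Il12rb2. The difference was not tested, and the median depths of the compared cells differ as well. In gamma-delta T cells the shares were 44.4% (34.0 to 55.3) of Ifng-positive cells and 14.1% of Ifng-negative cells, with median depths of 6847 and 5562 UMIs.

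The NK gate required Ncr1 and the absence of Cd3e. In it 47.6% of cells carried Cd3g and 19.4% carried Trdc, and 8 cells also passed the gamma-delta T gate. Alpha-beta T markers summed to 939 CPM in NK cells, against 4407 CPM in alpha-beta T cells, and NK markers to 6874 CPM in NK cells. The gate itself bears on these sums, since Cd3e is among the alpha-beta T markers and Ncr1 among the NK markers. AT2 markers summed to 2282 CPM in NK cells and to 171 CPM in gamma-delta T cells, and their part in these levels was not tested. With cells that passed several gates left out, the log2 fold of Ifng in NK cells was 6.19 in place of 5.38.

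**Figure D3:**
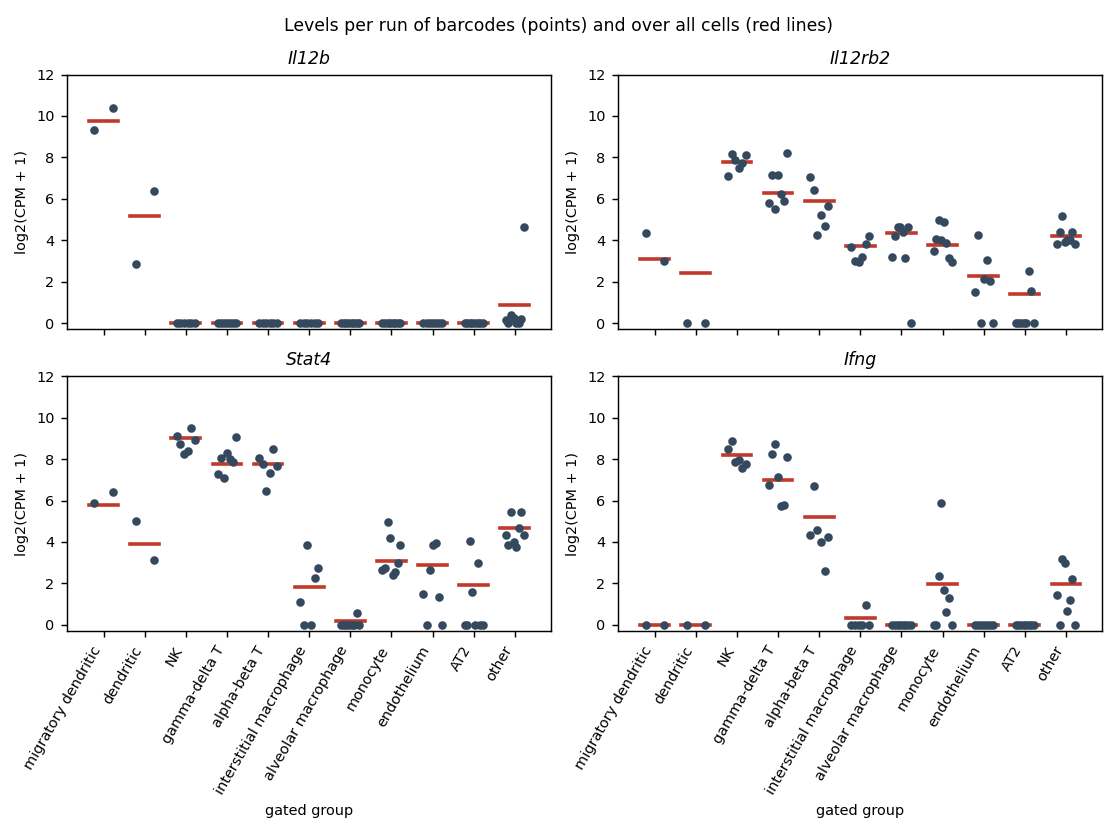
Levels of Il12b, Il12rb2, Stat4 and Ifng (y axis, log2 of CPM + 1) in the 11 groups of cells. Points are runs with 10 or more cells of that group and red lines are the level over all cells. The NK points of Il12rb2, Stat4 and Ifng stand above the points of the macrophages, monocytes, endothelium and AT2 cells, and Il12b is at 0 in every run of 8 groups.

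Over the 11 groups the levels of Ifng followed those of Il12rb2 and Stat4, with Pearson r of log2(CPM + 10) of 0.95 and 0.90, and ran against those of Ifngr2, with r of -0.81. These are descriptions over 11 groups that share libraries and depth. Il12rb2, Stat4 and Ifng, a receptor chain, its signal carrier and their target cytokine, all highest in NK cells, are shown with the 250 bases before their start, the window in which a promoter is read, and Il12b is set beside them as the gene of the other cell type. Sequences are from RefSeq (GRCm38.p6), on the gene's strand, 5′ to 3′, and 9 of the 10 members had an entry. Capitals mark the letters TTCNNNGAA, the gamma-activated sequence that STAT proteins bind, searched on both strands.
Ifng, chr10:118440796-118441045, plus strand: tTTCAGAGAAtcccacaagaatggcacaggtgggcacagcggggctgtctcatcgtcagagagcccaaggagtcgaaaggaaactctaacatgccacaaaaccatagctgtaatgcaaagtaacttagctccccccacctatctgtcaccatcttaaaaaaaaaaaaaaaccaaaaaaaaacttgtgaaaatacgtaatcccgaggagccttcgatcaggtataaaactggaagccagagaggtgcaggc
Il12rb2, chr6:67376189-67376438, minus strand: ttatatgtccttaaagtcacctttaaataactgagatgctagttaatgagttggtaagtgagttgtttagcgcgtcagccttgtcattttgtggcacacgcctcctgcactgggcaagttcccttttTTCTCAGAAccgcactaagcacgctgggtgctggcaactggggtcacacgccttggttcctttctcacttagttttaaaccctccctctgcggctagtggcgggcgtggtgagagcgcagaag
Stat4, chr1:51986898-51987147, plus strand: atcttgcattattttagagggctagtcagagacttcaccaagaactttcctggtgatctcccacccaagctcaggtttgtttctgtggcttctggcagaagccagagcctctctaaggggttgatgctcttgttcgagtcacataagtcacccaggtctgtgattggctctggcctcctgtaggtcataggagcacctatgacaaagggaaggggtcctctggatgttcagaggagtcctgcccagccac
Il12b, chr11:44399813-44400062, plus strand: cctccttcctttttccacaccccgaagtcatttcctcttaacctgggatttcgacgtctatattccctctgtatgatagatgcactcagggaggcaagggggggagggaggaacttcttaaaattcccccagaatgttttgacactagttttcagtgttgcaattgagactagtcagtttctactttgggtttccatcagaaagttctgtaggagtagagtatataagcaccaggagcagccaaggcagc
Ifng held the match TTCAGAGAA from 249 to 241 bases before its start and Il12rb2 the match TTCTCAGAA from 123 to 115 bases before it, while the windows of Stat4 and Il12b held none of these letters. Of 32851 promoter windows of the same length, 7.02% held such a match. The letters GGTGTGA of the T-box family, which includes Tbx21, were in 3.33% of all windows, TGANTCA of AP-1 in 6.75% and the NF-kB motif in 4.94%, also on both strands, and none of these were in the 4 windows.

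The receptor for interferon gamma was found in every group, but its chains differed in where they were high. Ifngr1, the ligand-binding chain (chromosome 10, 19591949 to 19610229, plus strand), was highest in NK cells at 561 CPM (516 to 607) and gamma-delta T cells at 538 CPM (509.7 to 568), which did not differ beyond counting error. Interstitial macrophages followed at 389 CPM (370 to 409), then monocytes at 327 CPM and dendritic cells at 321 CPM, which overlap. Ungated and alpha-beta T cells had 256 and 251 CPM, and alveolar macrophages and endothelium 99.6 and 97.6 CPM. The lowest were migratory dendritic cells at 37.0 CPM (20.7 to 61.0) and AT2 cells at 36.8 CPM (31.5 to 42.7).

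Ifngr2, the chain that starts signalling and can be limiting in lymphocytes (chromosome 16, 91547072 to 91565623, plus strand), was highest in interstitial macrophages at 135 CPM (124 to 147), against 68.5 CPM in all other cells, a 1.97-fold difference (1.80 to 2.16). Monocytes had 105 CPM and migratory dendritic cells 88.8 CPM, and ungated cells, dendritic cells, endothelium, alveolar macrophages and alpha-beta T cells lay between 75.5 and 38.3 CPM. AT2 cells had 25.2 CPM and gamma-delta T cells 17.8 CPM (12.95 to 23.9). NK cells were lowest of all, at 4.70 CPM (1.53 to 10.97), against 72.9 CPM in all other cells. Across runs the NK level was 0 at the lowest, 3.94 at the median and 10.7 CPM at the highest of 6 runs, below the other cells of the same run in each. With only 5 UMIs behind it, the log2 fold was -3.95, and between -4.63 (doublets removed) and -3.07 (thinned to 2000 UMIs) over the alternative settings.

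NK cells thus ranked first for Ifngr1 and last for Ifngr2. Of the 150 NK cells with an Ifngr1 UMI, 4 also carried Ifngr2 (2.67%, 0.731 to 6.69), while 191 of 302 such interstitial macrophages did (63.3%, 57.5 to 68.7). The median depths of those cells were 4568 and 8780 UMIs, but with every cell thinned to 2000 UMIs Ifngr2 was still found in 23.7% of interstitial macrophages and in 0 of 169 NK cells. In alpha-beta T cells 41 of 201 (20.4%) and in gamma-delta T cells 30 of 258 (11.6%) Ifngr1-positive cells carried both. Migratory dendritic cells had Ifngr1 close to the AT2 level, and their Ifngr2, at 88.8 CPM (62.2 to 122.9), overlapped that of monocytes and of ungated cells. Among ungated cells the nonclassical monocytes, marked by Ace or Treml4, held 476 CPM of Ifngr1 (462 to 491) and 105 CPM of Ifngr2 (98.1 to 112).

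**Figure D4:**
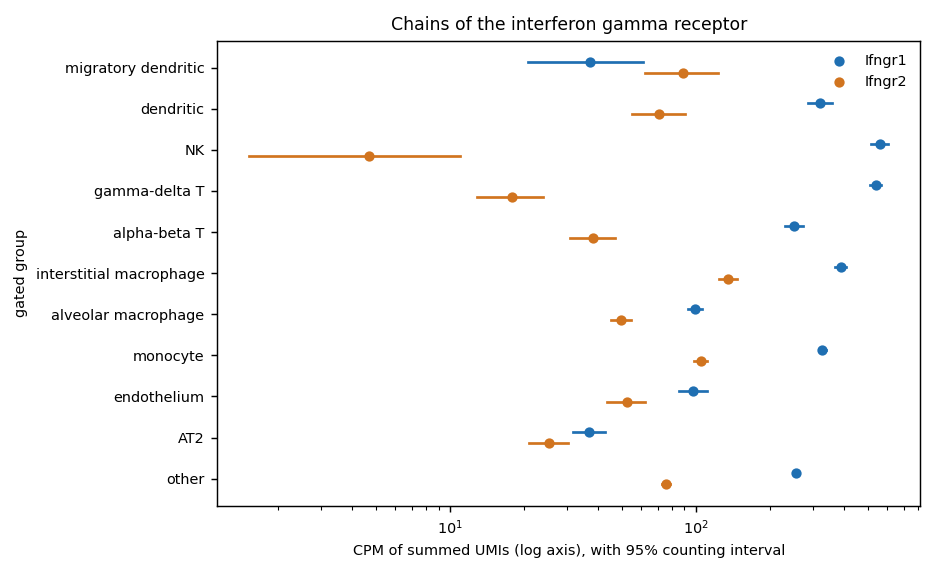
CPM of Ifngr1 (blue) and Ifngr2 (orange) on a log axis in the 11 groups of cells, with 95% counting intervals as lines. NK cells have the highest Ifngr1 (561 CPM) and the lowest Ifngr2 (4.70 CPM).

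The interferon gamma-induced chemokines were rare and sat in few cells. Cxcl9 (chromosome 5, 92321347 to 92328079, minus strand), a ligand of Cxcr3, gave 245 UMIs in 45 cells, and the 3 highest cells, with 62, 43 and 20 UMIs, held 51.0% of them. It was highest in dendritic cells at 15.1 CPM (8.23 to 25.3), from 14 UMIs in 5 cells, all of the type 1 set, and this level missed the 20 CPM needed to be counted. The miss turned on 1 run, since the level was 23.1 CPM without run 1 and 10.0 CPM without run 3. Ungated cells held 187 UMIs in 27 cells (4.72 CPM), and endothelium, interstitial macrophages, monocytes and alveolar macrophages had 4.61, 2.25, 1.72 and 0.700 CPM. The endothelial value came from 1 cell with 11 UMIs. Migratory dendritic cells, all 3 lymphocyte gates and AT2 cells had 0.

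Cxcl10, its neighbour on the same chromosome (92346638 to 92348889, minus strand) and the other main ligand of Cxcr3, gave 682 UMIs in 221 cells. Its leading group was NK cells at 36.7 CPM (26.1 to 50.1), against 8.47 CPM in all other cells, a 4.33-fold difference (3.05 to 5.99). That level rested on 7 of 191 cells, and 1 cell held 26 of the 39 UMIs. In run 4 NK cells had 306 CPM, in run 3 they had 38.9 CPM and in run 7 they had 4.61 CPM, with 0 in the other 5 runs. Without run 4 the log2 fold was 0.26 in place of 2.12, and thinned to 2000 UMIs per cell it was 1.31.

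Most groups differed little in Cxcl10. Migratory dendritic cells, gamma-delta T cells, interstitial macrophages, monocytes, endothelium, alpha-beta T cells and ungated cells lay between 12.3 and 9.56 CPM, each overlapping its neighbour in that order. Single runs weighed on several of these: without run 4 gamma-delta T cells had 6.85 CPM, without run 3 interstitial macrophages had 6.47 CPM, without run 1 endothelium had 6.54 CPM and without run 7 migratory dendritic cells had 7.63 CPM. Alveolar macrophages had 2.34 CPM, dendritic cells 1.08 CPM and AT2 cells 0. Among ungated cells the type 2 innate lymphoid cells held 96.6 CPM (72.8 to 126) from 14 of 87 cells, with 25 of 55 UMIs in a single cell. The highest cell of the table, with 84 UMIs, was ungated. Both chemokines were found together in 10 cells, or 22.2% (11.2 to 37.1) of the 45 Cxcl9-positive cells.

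Other genes of the pathway were taken from lists by role. Of 14 further cytokines and receptors that induce Ifng, 11 were concentrated in their leading group, and Il23a, Il27 and Ebi3, a subunit of interleukin-27, were not. Il23r led in gamma-delta T cells at 175 CPM, 156-fold above all other cells, and Il27ra, the interleukin-27 receptor, led there at 54.7 CPM. Il18r1, a chain of the interleukin-18 receptor, and Il2rb, a chain shared by the receptors for interleukins 2 and 15, led in NK cells at 682 CPM (633 to 733) and 546 CPM (503 to 593). Il18, named after its values were seen, led in alveolar macrophages at 379.5 CPM (367 to 393).

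Of 16 genes of type 1 lymphocytes, 12 were concentrated and NK cells led for 9. Prf1, the pore-forming protein perforin, stood at 75.2 CPM in NK cells, Xcl1, a chemokine for type 1 dendritic cells, at 290 CPM and Eomes, a T-box transcription factor, at 91.2 CPM. Ccl5, a chemokine for T cells, led in migratory dendritic cells instead, at 11810 CPM. Of 9 genes of the JAK and STAT pathway 2 were concentrated, both in migratory dendritic cells: Socs1, an inhibitor of interferon gamma signalling, at 81.4 CPM and Jak2, a kinase of both receptors, at 444 CPM. Socs3 and Jak1 led in endothelium and NK cells at 201 and 503 CPM, at 3.03-fold and 2.70-fold.

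Of 13 genes of pathogen sensing and transcription that are known to act before Il12b, 8 were concentrated. Cd40, the receptor through which T cells stimulate dendritic cells, and Batf3, a transcription factor of type 1 dendritic cells, led in migratory dendritic cells at 178 CPM (139 to 224) and 252 CPM (205 to 305). Tlr11 and Tlr3, receptors for microbial profilin and double-stranded RNA, led in dendritic cells at 37.6 and 111 CPM.

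Of 30 interferon gamma targets with counts, 20 were concentrated, and migratory dendritic cells led for 9. H2-Ab1 and H2-Aa, chains of MHC class II, led in dendritic cells at 4255 and 4082 CPM. Iigp1, an interferon-inducible GTPase, led in endothelium at 177 CPM (161 to 195), against 2.28 CPM elsewhere, and Serpina3g, a protease inhibitor, in NK cells at 56.4 CPM. Of 8 type 2 counterparts 4 reached 20 CPM in their leading group and 1 was concentrated, the transcription factor Gata3. It was close to level across the lymphocyte gates, at 76.1 CPM in gamma-delta T, 73.6 CPM in alpha-beta T and 73.4 CPM in NK cells. Il4ra and Tgfb1 led in migratory dendritic cells and interstitial macrophages at 2.46-fold and 1.46-fold, and Stat6 in monocytes at 1.21-fold. Type 2 innate lymphoid cells had no gate of their own. A gene high only in them is diluted among the ungated cells, so this count is no measure of type 2 expression. These lists stand beside a background of 15.7% of genes and were drawn up with earlier results of these data known.

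The genes whose levels were most like each member over the 11 groups were found among 10140 genes that reached 20 CPM in some group, leaving out those that set the gates. For Il12b they were Scin, H2-Eb2 and Oprd1, with Pearson r of 0.99 or above. For Ifng they were Gm43647, Gzmb (granzyme B, a cytotoxic protease) and Lcn4, for Il12rb2 Gm34086, Xcl1 and Itpk1, and for Stat4 Txk, Gimap3 and Sept1. Those of Il12rb1 were Podnl1, Ly6g5b and Gm43434, and those of Ifngr1 were Lrwd1, Tsc22d4 and Ifi203. Ifngr2 was most like Alpk1, Mcl1 and Rxrb, and Cxcl10 most like Dmac2, B3gat3 and Gm26510, with r between 0.86 and 0.90. A gene that is high in 1 group only reaches a high r with any other such gene.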

How the data were processed

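Single-cell libraries were made from sorted lung cells with a droplet-based 3′ kit, per the labels' protocols. The values are the deposited counts, whole UMIs per gene and cell, in 1 table of 32285 genes and 11806 cells with 77020720 UMIs. The submitters' processing notes name Cell Ranger 1.3.1 and the mm10 genome, and the handling of strand and introns is not given in the sources used here. Of the column names 0 matched a library, so the planned edgeR test of hyperoxia against air could not be run. All cells were taken as 1 pooled sample, and no p-value is given. Free RNA was not subtracted and doublets were kept.

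Gates were applied in the order listed, and the first passed gate was taken. Counts summed per group were scaled to CPM, with exact Poisson intervals. Shares have exact binomial (Clopper-Pearson) intervals and folds exact conditional ones. All cover counting error only, at 95%. A count of 0 allows up to 3 counts. Genes with 20 UMIs or more in the table were compared. Cells under 2000 UMIs (1423) were left out when thinning. Gene coordinates are from GENCODE vM21. Scrublet in scanpy 1.11.5 scored doublets for an alternative. The members and lists were chosen with earlier results of these data known. Named genes are all members, up to 4 genes per list by fold at 20 CPM or more, and the 3 genes most like each member. The fold calculation was tested on simulated Poisson counts of genes with 2000 UMIs or more in the table. Of the members only Stat4, Ifngr1 and Ifngr2 reach that. The simulation therefore does not cover the rarer members, nor UMIs that sit in few cells.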

Additional observations from a re-analysis of the deposited data

How the results depend on the processing

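The number of members concentrated in their leading group was 6, between 5 and 7 when each run was left out, and between 4 and 7 under the other settings: doublets removed, cells passing at most 1 gate, gates raised or lowered by 1 UMI, a stricter cell filter, the mean of CPM per cell, thinning to 2000 UMIs, and a minimum of 10 or 50 CPM (7 and 4). A gamma-delta T gate that also asks for Cd3e, chosen after seeing the data, left it at 6. The log2 fold of Il12b in migratory dendritic cells was 9.94, with 10.38 when gates were raised and 9.66 to 10.75 when a run was left out. That of Ifng in NK cells was 5.38, with 6.19 for cells passing at most 1 gate and 5.23 to 5.63 when a run was left out. The cause of these shifts was not tested. Of 320 recomputed folds of 20 other gene and group pairs, 277 stayed within the counting interval and 43 moved beyond it, and 26 moved by over 1.5 times. None of the folds past the limit changed sign. Il12rb2 in alveolar macrophages, which was near 0 at -0.13 on the log2 scale, stood at 0.02 for cells passing at most 1 gate and at 0.04 when thinned. No paired analysis was possible because the columns carry no sample and no replicate number. The alternatives for hyperoxia against air were not run for the same reason. Groups of 54 and 81 dendritic cells, and chemokines found in few cells, limit the precision.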
